A study of Homo sapiens with 4 samples.

Results

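The HOX cluster genes and the mesenchyme homeobox genes *MEOX1* and *MEOX2* were examined in FLO-1LM and FLO-1 parental cells. The HOX genes were selected by symbol, as the protein-coding genes called HOXA, HOXB, HOXC or HOXD and a number, which gave 39 genes. *MEOX1* was chosen from earlier results of the same libraries, in which it was lower in FLO-1LM, and *MEOX2*, its only close relative, was taken with it. The group holds 41 of the 63677 genes in the count files. Because *MEOX1* owes its place to this comparison, its difference between the lines is given as a description, and nothing is supported with it.

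Gene expression was measured by RNAseq of total RNA in 4 libraries, 2 from each line. FLO-1 is a line established from a human adenocarcinoma of the esophagus. FLO-1LM is a subline grown from a FLO-1 liver metastasis after liver metastases had been passed repeatedly under the skin of NSG mice, which lack an adaptive immune system, and it was then kept in culture. The labels name no treatment, and the cells of both lines were harvested at the same confluency a fixed time after a change of medium. FLO-1LM is therefore a single selected subline, and a difference belongs to these lines only. Whether the 2 libraries per line were grown as separate cultures is not in the labels, so the p-values measure only the spread between these libraries, which may be technical. The labels give no date or batch either, so batch and line cannot be told apart. The spread was unequal. Over all genes with a count, the FLO-1LM libraries differed by a chi-square per degree of freedom of 7.85 and the parental libraries by 3.7. Pairs across the lines stood at 8.74 to 10.76. This measure also grows with depth.

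HOX genes encode homeodomain transcription factors that give cells along the head-to-tail axis their regional identity. They lie in 4 clusters in which all genes are read in the same direction, genes of low paralog number near the 3′ end are used towards the head and early, and genes of high number near the 5′ end towards the tail and late. Many adult tissues and the tumors that arise from them keep a regional HOX pattern, held in place by Trithorax proteins, which keep genes on, and Polycomb proteins, which keep genes off. MEOX1 and MEOX2 are homeodomain proteins outside the clusters, known from the formation of somites, and *MEOX1* also has a place in mesenchymal cells and in the control of cell cycle inhibitors.

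Total counts ran from 19060310 to 25920336 per library, and 17143 genes passed the count filter. Levels are CPM, the counts scaled to a common library size with TMM factors, divided by the length of the exons in kilobases wherever genes are compared with each other. At this depth 3 counts, taken as the limit of detection, equal 0.117 to 0.156 CPM depending on the library. The keratins *KRT8*, *KRT18* and *KRT19* marked the cells as epithelial, although *EPCAM* had only 3 to 12 counts. The summed level of these 4 epithelial markers was 479 and 462 CPM in FLO-1LM and 759 and 775 CPM in parental cells. Of 6 fibroblast markers, *DCN* and *COL3A1* were at 0 and the sum lay between 10.01 and 13.1 CPM in all 4 libraries, nearly all of it from *COL1A1*. The leukocyte gene *PTPRC* and the hepatocyte genes *ALB* and *TTR* had no count. The 2 endothelial markers found summed to at most 0.31 CPM. In bulk RNA, fewer cells that express a gene and less RNA of it per cell cannot be told apart.

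Both lines expressed a broad HOX repertoire, led by the central genes of the HOXB and HOXC clusters, and the HOXD cluster was close to silent. The summed HOX level was 679.3 and 630.9 CPM in FLO-1LM libraries 1 and 2, and 662.8 and 678.0 CPM in parental libraries 1 and 2. The ranges of the lines overlap. HOXB genes held 54.0% to 55.2% of all HOX counts, HOXC genes 31.5% to 33.9%, HOXA genes 11.9% to 13.4% and HOXD genes 0.145% to 0.226%. The HOXA, HOXB and HOXC shares overlapped between the lines. The HOXD share was lower in both FLO-1LM libraries and rests on 22 to 33 counts.

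Of the 41 members, 30 passed the filter on low counts, namely 29 HOX genes and *MEOX1*. A further 5 had a few counts and 6 had none in any library. Per kilobase, 14 members stood above 5.944 CPM, the median of the 12536 protein-coding genes that passed the filter. These were *HOXB3* to *HOXB9*, *HOXC6*, *HOXC8*, *HOXC9*, *HOXC10*, *HOXA5*, *HOXA9* and *MEOX1*. Genes below the filter do not enter that median.

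**Figure D1:**
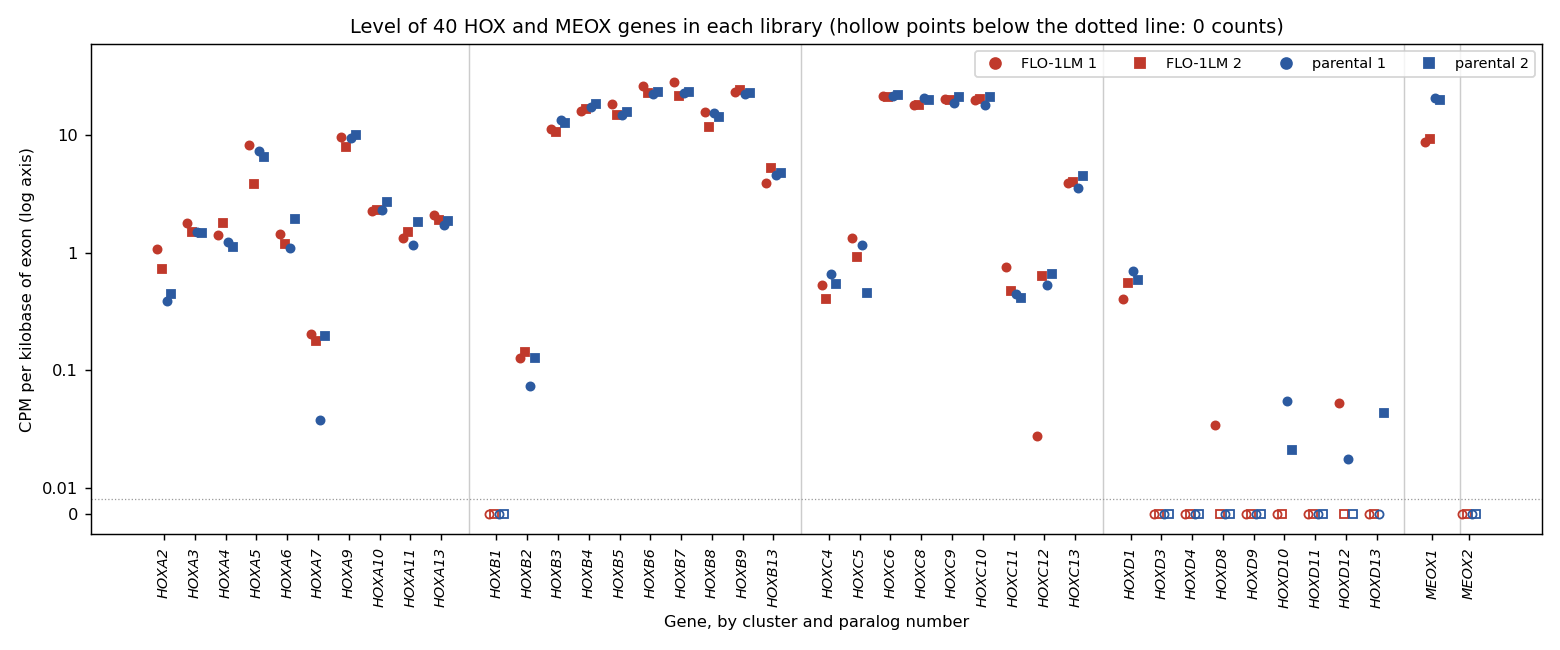
Level of 40 members in each of the 4 libraries, in CPM per kilobase of exon on a log axis, ordered by cluster and paralog number. Red marks are FLO-1LM and blue marks FLO-1 parental, circles are library 1 and squares library 2, and hollow marks below the dotted line are libraries with 0 counts. The genes from *HOXB3* to *HOXB9* and from *HOXC6* to *HOXC10* sit between 10 and 30 CPM per kilobase in every library, all HOXD genes lie below 1, and the *MEOX1* marks of the lines are apart.

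By exon length, the highest members were 3 HOXB genes. *HOXB7* stood at 24.1 CPM per kilobase over the 4 libraries (21.8 to 28.4), *HOXB6* at 23.8 and *HOXB9* at 23.3. *HOXC6* at 21.6, *HOXC9* at 20.1, *HOXC10* at 19.8 and *HOXC8* at 19.2 came next. *HOXB4* at 17.2, *HOXB5* at 16.1, *MEOX1* at 14.8 (8.78 to 21.0, as the lines differ), *HOXB8* at 14.3 and *HOXB3* at 12.04 followed. *HOXA9*, at 9.30, was the highest HOXA gene and *HOXD1*, at 0.560, the highest HOXD gene. Of the 29 pairs of neighbors in this order, 26 had overlapping ranges over the 4 libraries. The 3 pairs apart were *HOXB9* over *HOXC6*, *HOXB3* over *HOXA9* and *HOXA10* over *HOXA13*. With the longest annotated transcript as length, only *HOXB3* moved by more than 2 places, from place 12 to place 7. By that length *HOXB6* and *HOXB7* still led. *HOXC6* at 25.4 and *HOXC10* at 23.8 CPM per kilobase then stood above *HOXB9* at 23.3. The order of *HOXB9* and *HOXC6* thus depends on the length used.

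Paralog groups are the genes of equal number in different clusters. By the mean of the 4 libraries, a HOXB gene was the highest in groups 3, 4, 5, 6, 7, 9 and 13. In group 13 the ranges of *HOXB13* (3.94 to 5.25) and *HOXC13* (3.54 to 4.51) overlapped. In group 7, *HOXB7* stood at 24.1 CPM per kilobase and *HOXA7* at 0.154. In group 6, in contrast, *HOXB6* and *HOXC6* were close, at 23.8 and 21.6, and in group 9 *HOXB9* and *HOXC9* stood at 23.3 and 20.1. HOXC genes led groups 8, 10 and 12, and HOXA genes groups 2 and 11. The lead in group 12 did not hold in FLO-1LM library 1, with *HOXC12* at 0.0275 and *HOXD12* at 0.0523. Paralogs resemble each other in the homeobox, and how the authors treated reads with several matches is not given in the sources used here.

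Promoters are shown for some expressed and some silent members. Windows of 250 bases before a RefSeq start were found for 21 of the 41 members, 28 windows in all, with *HOXC4* and *HOXC5* sharing 1 window. The members without an entry included *MEOX1*, *HOXA5*, *HOXB2* to *HOXB13*, *HOXC6*, *HOXC8* to *HOXC13* and *HOXD9*. The highest member with a window was *HOXA9*, at place 13 of the 30 tested members by level, so no promoter from the upper end is shown. The windows below belong to *HOXA9*, the highest HOXA gene, to *HOXD1* and *HOXD11*, an expressed and a silent HOXD gene, and to *MEOX2*, the silent relative of *MEOX1*. They are given 5′ to 3′ on the strand of the gene, ending at the base before the start, with each CpG in capitals. Their places on GRCh37 are chr7:27205157-27205406 (minus strand), chr2:177053146-177053395 (plus), chr2:176971758-176972007 (plus) and chr7:15726309-15726558 (minus).
HOXA9: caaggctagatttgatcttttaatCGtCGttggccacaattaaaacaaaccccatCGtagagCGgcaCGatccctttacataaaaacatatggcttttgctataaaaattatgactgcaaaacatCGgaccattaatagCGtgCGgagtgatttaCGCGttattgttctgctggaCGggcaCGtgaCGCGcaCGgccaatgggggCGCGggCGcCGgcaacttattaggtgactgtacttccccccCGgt
HOXD1: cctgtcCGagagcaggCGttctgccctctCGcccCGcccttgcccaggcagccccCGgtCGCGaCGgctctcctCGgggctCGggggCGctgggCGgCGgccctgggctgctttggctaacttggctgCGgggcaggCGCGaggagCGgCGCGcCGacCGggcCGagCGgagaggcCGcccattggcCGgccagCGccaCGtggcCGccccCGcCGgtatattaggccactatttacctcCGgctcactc
HOXD11: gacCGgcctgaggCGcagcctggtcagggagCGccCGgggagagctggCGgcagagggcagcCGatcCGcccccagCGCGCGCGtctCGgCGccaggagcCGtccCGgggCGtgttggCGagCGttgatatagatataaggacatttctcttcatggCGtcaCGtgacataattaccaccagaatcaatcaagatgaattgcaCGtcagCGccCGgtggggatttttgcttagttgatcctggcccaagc
MEOX2: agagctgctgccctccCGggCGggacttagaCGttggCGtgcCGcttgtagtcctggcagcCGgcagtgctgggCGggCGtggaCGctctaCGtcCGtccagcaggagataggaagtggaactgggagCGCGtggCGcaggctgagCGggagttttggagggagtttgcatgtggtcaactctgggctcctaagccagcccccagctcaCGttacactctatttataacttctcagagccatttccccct

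These windows hold 20 CpG in *HOXA9*, 31 in *HOXD1*, 23 in *HOXD11* and 16 in *MEOX2*, against a median of 11.0 over all 35116 RefSeq windows of this length. The windows of members that passed the filter and of those that did not overlapped in CpG number. Windows are counted here and not genes, as *HOXA3* and *HOXA10* have several and the window shared by *HOXC4* and *HOXC5* counts for each. Of the members with a window, only *HOXA9* stood above the protein-coding median level, so the highest members do not enter this comparison. The 9 windows of members that did not pass the filter held 4 to 28 CpG, with a median of 21.0, and the 19 windows of members that passed held 0 to 40, with a median of 19.0. Of the motifs searched on both strands, TATAAA was present at -150 in *HOXA9*, on the strand shown. In *MEOX2* it was present at -29 on the other strand only, where the sequence shown reads TTTATA. On either strand, 10.7% of all windows hold it. In *HOXD11* the homeodomain core TAATTA, which reads the same on both strands, was present at -81. The HOX-PBX motif TGATTNAT was present there at -67 on the other strand only, where the sequence shown reads ATCAATCA. Of all windows, 4.35% hold TAATTA and 2.48% hold TGATTNAT. *HOXD1* had no match to these or to CACCTG, a form of the E-box present in 17.5% of windows. A match is a run of letters and not a site shown to be bound.

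The comparison of the lines asked which members differed between the liver-derived subline and the cells it came from. Of the 30 members tested, 1 passed an adjusted p of 0.05 in edgeR's quasi-likelihood test, *MEOX1*, beside 2.23% of all 17143 genes tested. Split by direction, 0.402% of all genes tested were called higher and 1.83% lower in FLO-1LM. No HOX gene was called, 0 of 29, in edgeR, DESeq2 or limma voom. At an unadjusted p below 0.05, 2 HOX genes passed in edgeR, *HOXA2* and *HOXB3*, where 12.4% of all genes did. Without FLO-1LM library 1, the log2 fold changes of *HOXA5* and *HOXB3* were -0.86 and -0.30. Without FLO-1LM library 2, that of *HOXC12* was -4.34. Permuting 2 libraries against 2, an exact test cannot go below p = 0.333 for any 1 gene.

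The HOX genes as a group were centered near 0. Their log2 fold changes, FLO-1LM against parental, had a median of -0.01 and ran from -0.81 for *HOXC12* to 1.11 for *HOXA2*, while the median of all genes tested was 0.0016. Of the 29 HOX genes, 14 had values above 0, 15 below, and 20 lay within 0.25 of 0. The median was 0.14 for the 11 HOXA genes, 0.03 for the 8 HOXB genes and -0.01 for the 9 HOXC genes. The libraries of the lines did not overlap in 6 members higher and 8 members lower in FLO-1LM, *MEOX1* included, beside 20.9% and 21.7% of all genes tested. Those higher included *HOXA2*, *HOXA4*, *HOXA13*, *HOXB9* and *HOXC11*. Those lower were *HOXA10*, *HOXB3*, *HOXB4*, *HOXC4*, *HOXC6*, *HOXC8*, *HOXD1* and *MEOX1*. In 20 of the 30 members, the libraries of 1 line differed from each other by more than the lines did.

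**Figure D2:**
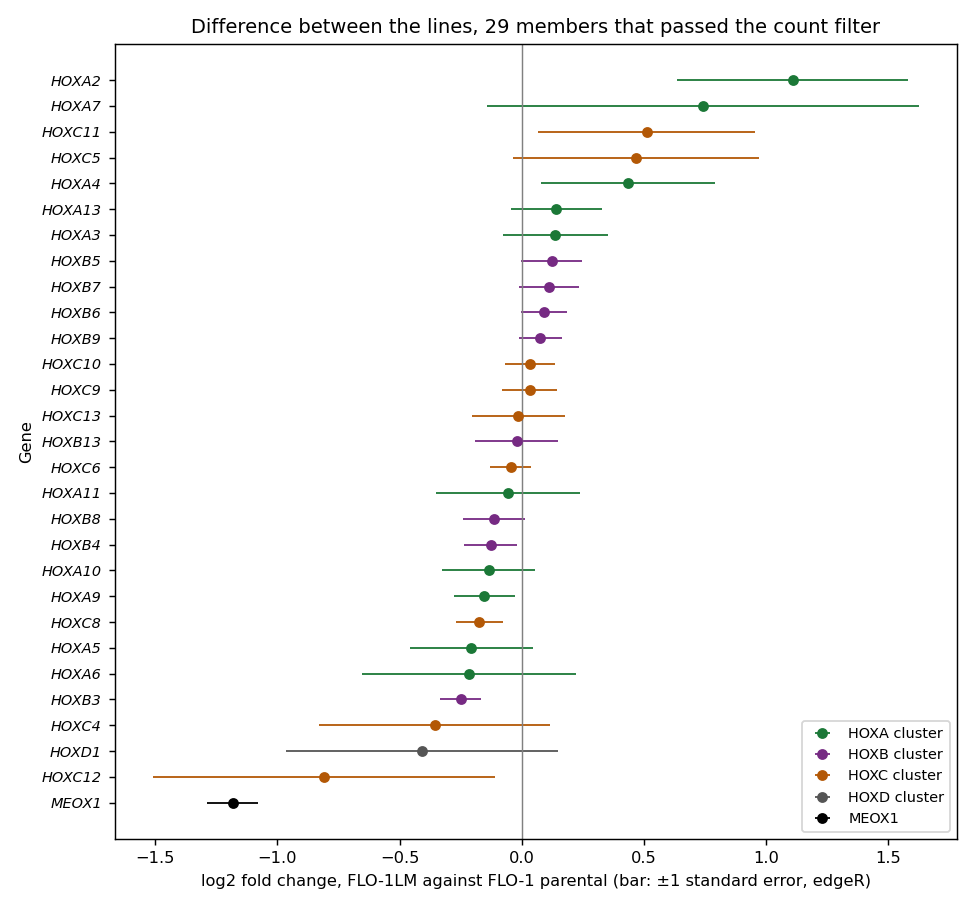
Log2 fold change of FLO-1LM against FLO-1 parental for 29 members that passed the count filter, with bars of 1 standard error from edgeR, colored by cluster. *MEOX1* lies at -1.18 with a short bar, *HOXA2* at 1.11 is the highest, and most HOXB and HOXC genes lie close to 0.

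*MEOX1* (ENSG00000005102, GRCh37 chromosome 17, 41717757 to 41739290, minus strand) had 523 and 638 counts in FLO-1LM and 1236 and 1025 counts in parental cells. Its level was 24.1 ± 0.924 CPM in FLO-1LM and 54.8 ± 1.85 CPM in parental cells (SD, n = 2). Both FLO-1LM libraries were lower than both parental libraries, and the libraries of a line lay close together. The log2 fold change was -1.18 (SE 0.104). Per kilobase it fell from 21.0 and 20.0 CPM in parental libraries 1 and 2 to 8.78 and 9.27 CPM in FLO-1LM libraries 1 and 2. The mean of the 4 libraries, which pools lines that differ, lay at percentile 75.9 of the protein-coding genes tested. *MEOX2* had no count in any library. The 3 keratins among the epithelial markers were lower in FLO-1LM too, while the few counts of *EPCAM* overlapped between the lines. *KRT19* stood at 12.9 ± 0.432 CPM in FLO-1LM and 32.0 ± 2.64 CPM in parental cells, and *KRT8* and *KRT18* had log2 fold changes of -0.70 and -0.66. Their part in the fall of *MEOX1* was not tested.

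The genes within 100 kb of *MEOX1* that passed the filter did not show the same difference. LINC02594, the nearest gene, had 2 and 0 counts in FLO-1LM and 6 and 1 in parental cells, too few to be tested. *SOST* was not tested either. WHSC1L2P, a pseudogene, passed and had a log2 fold change of 0.08 (SE 0.386). *DHX8*, an RNA helicase gene on the opposite strand, had 1940 and 2563 counts in FLO-1LM and 2203 and 1863 in parental cells, with a log2 fold change of -0.08 (SE 0.0862). *ETV4*, an ETS transcription factor gene on the same strand, had 316 and 495 counts against 253 and 261. It was higher in both FLO-1LM libraries, by 0.42 on the log2 scale (SE 0.175), and was not called, with an adjusted p of 0.319 in edgeR. Without FLO-1LM library 1 its log2 fold change was 0.62. The HOXB cluster lies on the same chromosome but outside the 100 kb examined around *MEOX1*.

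In the HOXA cluster (GRCh37 chromosome 7, 27132612 to 27239710, minus strand), 11 of 11 genes passed the filter. Counts here and below are given for FLO-1LM libraries 1 and 2 and then for parental libraries 1 and 2. *HOXA2*, the HOX gene used farthest forward in the hindbrain, had 56, 44, 20 and 20 counts. Each FLO-1LM library exceeded each parental one. *HOXA2* stood at 2.11 ± 0.569 and 0.975 ± 0.096 CPM, a log2 fold change of 1.11 (SE 0.472) that was not called (adjusted p = 0.334, edgeR).

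*HOXA3* had 171, 168, 144 and 122 counts and *HOXA4* had 54, 79, 47 and 37. Their log2 fold changes were 0.14 (SE 0.214) and 0.44 (SE 0.357), and *HOXA4* was higher in both FLO-1LM libraries. Of their exon length, 9.3% and 31.3% is shared with other genes on the same strand. *HOXA5*, a regulator of lung and foregut development, had 318, 170, 279 and 216 counts. The FLO-1LM libraries lay on either side of the parental ones, so that the log2 fold change of -0.21 (SE 0.252) is the mean of libraries that differ from each other by 1.11 on the same scale. Without FLO-1LM library 1 it was -0.86, and without FLO-1LM library 2 it was 0.25.

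*HOXA6* had 41, 39, 31 and 48 counts and *HOXA7* had 11, 11, 2 and 9. Neither separated the lines, and *HOXA7* shares 62.5% of its exon length with transcripts of the opposite strand. *HOXA9*, which is active in blood progenitors and in leukemia, was the highest of the cluster, with 653, 621, 638 and 583 counts. Its level was 26.7 ± 3.67 CPM in FLO-1LM and 29.7 ± 1.03 CPM in parental cells, a log2 fold change of -0.15 (SE 0.125). *HOXA10* had 187, 220, 190 and 192 counts and *HOXA11* had 79, 104, 68 and 93. Both genes are known from the uterus and the limb, and their log2 fold changes were -0.14 (SE 0.191) and -0.06 (SE 0.294). *HOXA13*, a gene of the limb ends and the hindgut, had 235, 247, 192 and 183 counts and a log2 fold change of 0.14 (SE 0.185). Both FLO-1LM libraries lay above the parental ones in CPM, but FLO-1LM library 2 and parental library 2 were close, at 9.59 and 9.54.

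The HOXB cluster (chromosome 17, 46605888 to 46806112, minus strand) held the largest share of HOX RNA, and 8 of its 10 genes passed the filter. *HOXB1*, the hindbrain gene at the 3′ end, had no count. Its neighbor *HOXB2* had 7, 9, 4 and 6 counts and did not pass. From *HOXB3* on, all genes were expressed. *HOXB3* had 1881, 2035, 2206 and 1805 counts, or 81.7 ± 3.81 CPM in FLO-1LM and 97.1 ± 4.20 CPM in parental cells. Scaled for depth, both FLO-1LM libraries were lower, and the log2 fold change of -0.25 (SE 0.0837) was not called (adjusted p = 0.173, edgeR). Without FLO-1LM library 1 it was -0.30.

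*HOXB4*, which supports the growth of blood stem cells, had 717, 869, 766 and 716 counts, or 33.0 ± 1.11 and 36.1 ± 1.83 CPM. *HOXB5* had 766, 718, 607 and 568 counts and *HOXB6* had 1521, 1529, 1302 and 1165. The log2 fold changes of these 3 genes were -0.13, 0.12 and 0.09. In *HOXB5* and *HOXB6* the lines overlapped after scaling, although the raw counts of FLO-1LM were higher. *HOXB7* had 960, 853, 773 and 679 counts and *HOXB8* had 844, 731, 816 and 663. *HOXB9* had 1350, 1619, 1278 and 1135 counts, with 61.7 ± 1.62 CPM in FLO-1LM and 58.6 ± 0.863 CPM in parental cells. Their log2 fold changes were 0.11, -0.11 and 0.08, each within 1 SE of 0. *HOXB13*, a gene of the hindgut and prostate that lies apart from the rest of the cluster, had 267, 411, 308 and 277 counts and a log2 fold change of -0.02 (SE 0.170).

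In the HOXC cluster (chromosome 12, 54332615 to 54449814, plus strand), 9 of 9 genes passed, at levels from 0.460 to 21.6 CPM per kilobase. The central genes *HOXC6*, *HOXC8*, *HOXC9* and *HOXC10*, which pattern the trunk, were high. *HOXC6* had 1652, 1873, 1665 and 1459 counts and *HOXC8* had 970, 1128, 1104 and 929. *HOXC9* had 759, 866, 687 and 673 counts and *HOXC10* had 1048, 1238, 940 and 965. These 4 genes had log2 fold changes of -0.05, -0.17, 0.03 and 0.03. *HOXC8*, at 43.7 ± 0.195 CPM in FLO-1LM and 49.3 ± 1.15 CPM in parental cells, was lower in both FLO-1LM libraries and was not called (SE 0.0957).

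*HOXC13*, a regulator of hair keratins, was of middle level, with 207, 244, 184 and 204 counts and a log2 fold change of -0.01 (SE 0.192). The other 4 HOXC genes had at most 55 counts in any library. *HOXC4* had 33, 29, 40 and 29 counts and *HOXC5* had 48, 38, 41 and 14. *HOXC5* shares 67.3% of its exon length with transcripts of the same strand, so its counts depend on how shared reads were assigned. *HOXC11* had 55, 40, 32 and 26 counts, with both FLO-1LM libraries higher and a log2 fold change of 0.51 (SE 0.442). *HOXC12* had 2 counts in FLO-1LM library 1 and 53 in library 2, beside 38 and 41 in the parental libraries. FLO-1LM library 2 was thus like the parental libraries and FLO-1LM library 1 stood apart. The log2 fold change of -0.81 (SE 0.700) became -4.34 without library 2 and 0.10 without library 1.

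**Figure D3:**
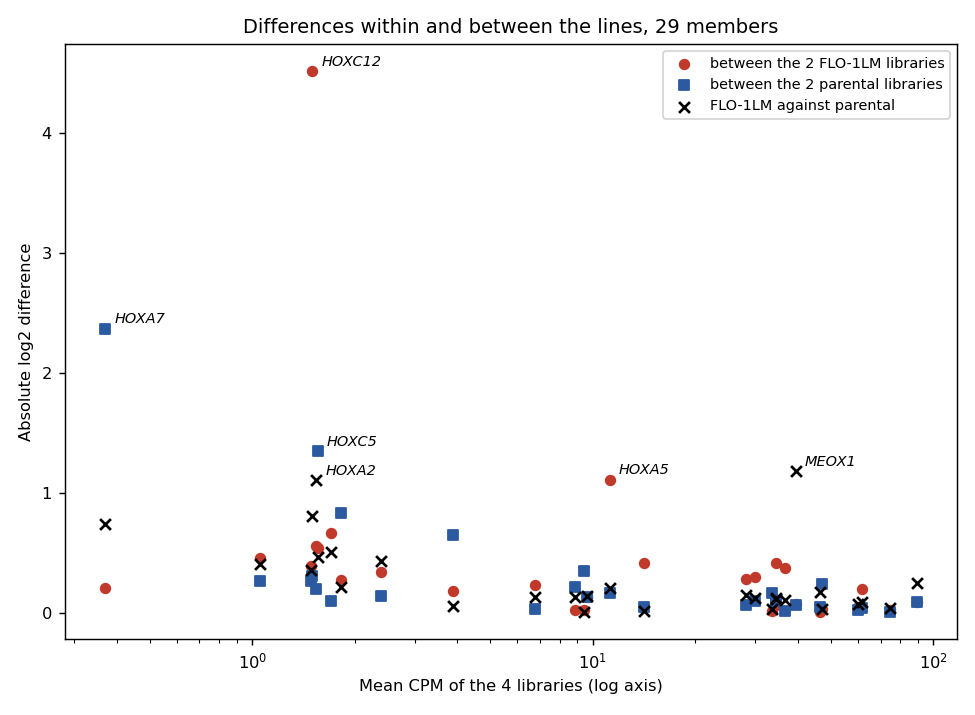
Absolute log2 difference in CPM between the 2 FLO-1LM libraries (red circles), between the 2 parental libraries (blue squares) and between the lines (black crosses, edgeR), against mean CPM on a log axis, for 29 members tested. At *MEOX1* the difference of the lines, 1.18, lies far above those within a line, 0.078 and 0.069, whereas at *HOXA5*, *HOXC12* and *HOXA7* libraries of the same line differ by 1.11, 4.52 and 2.37.

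The HOXD cluster (chromosome 2, 176957449 to 177055635, plus strand) was near the limit of detection. *HOXD1*, at the 3′ end, had 17, 27, 29 and 21 counts and was the only HOXD gene to pass the filter. Its level was 0.906 ± 0.202 CPM in FLO-1LM and 1.20 ± 0.156 CPM in parental cells. The log2 fold change was -0.41 (SE 0.556). The limb genes *HOXD10* and *HOXD13* had 0, 0, 3 and 1 counts and 0, 0, 0 and 2 counts. *HOXD8* had 2 counts in FLO-1LM library 1 and none elsewhere, and *HOXD12* had 3, 0, 1 and 0. *HOXD3*, *HOXD4*, *HOXD9* and *HOXD11* had no count in any library, which allows up to 0.117 to 0.156 CPM depending on the library. No difference between the lines was detectable at this depth in these 8 genes.

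The genes within 100 kb of the clusters and of the MEOX genes numbered 80. Of these, 32 passed the filter and 32 had no count. None was called in edgeR, DESeq2 or limma voom, beside 2.23% of all genes tested in edgeR. An unadjusted p below 0.05 in edgeR was found for 4, of which 3 were among the 23 tested within 50 kb. Of all genes tested, 12.4% had one. Inside the cluster spans, 19 neighbors passed, 15 on the strand opposite to the HOX genes and 4 on the same strand, and all are noncoding RNA genes. The counts of an antisense gene are uncertain where its exons overlap a HOX gene, because the strand setting of the counting is not given in the sources used here, and without it the reads of the partners cannot be told apart.

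**Figure D4:**
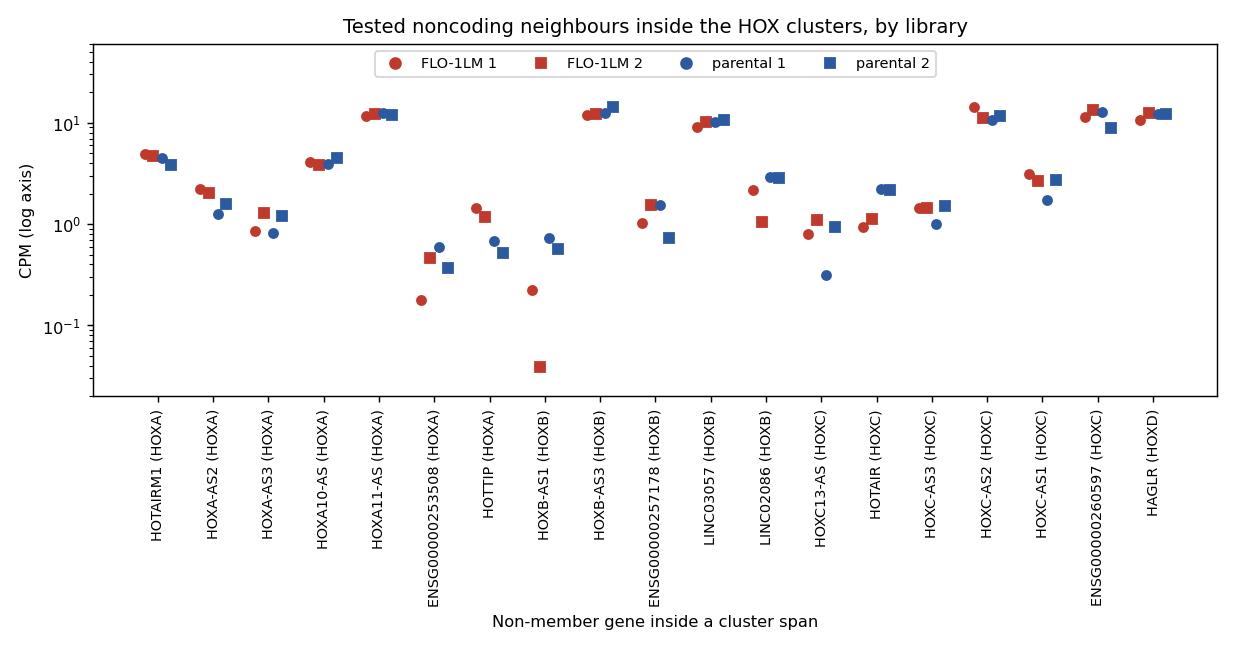
CPM on a log axis of the 19 noncoding genes inside the HOX clusters that passed the count filter, in each library, with the cluster in brackets. Red is FLO-1LM, blue is FLO-1 parental, circles are library 1 and squares library 2. The marks of the lines are apart, higher in FLO-1LM, for *HOTAIRM1*, *HOXA-AS2* and *HOTTIP*, apart and lower for *HOXB-AS1*, *HOXB-AS3*, LINC02086 and *HOTAIR*, and mixed for the other 12. Of all genes tested, 20.9% were apart and higher and 21.7% apart and lower.

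The noncoding genes of the HOXA cluster were expressed. *HOTAIRM1* had 110, 121, 100 and 74 counts and a log2 fold change of 0.20 (SE 0.255). *HOTTIP*, at the other end of the cluster, where it overlaps an exon of *HOXA13*, had 32, 30, 15 and 10 counts. Both FLO-1LM libraries were higher, with a log2 fold change of 1.10 (SE 0.587) that was not called (adjusted p = 0.48, edgeR). *HOXA11-AS* had 258, 315, 275 and 231 counts and exceeded *HOXA11* per kilobase in all 4 libraries, at 3.70 to 3.99 against 1.16 to 1.82 CPM. *HOXA10-AS* had 92, 98, 86 and 87 counts, *HOXA-AS3* 19, 33, 18 and 23, and ENSG00000253508 4, 12, 13 and 7. *HOXA-AS2* had 49, 52, 28 and 30 counts and was higher in both FLO-1LM libraries (0.57, SE 0.422).

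In the HOXB cluster, *HOXB-AS3* had 266, 318, 274 and 273 counts, LINC03057 had 202, 262, 223 and 204, and ENSG00000257178 had 23, 40, 34 and 14. The log2 fold changes of these 3 were -0.13, -0.11 and 0.18, each within 1 SE of 0. *HOXB-AS1*, which overlaps exons of *HOXB2* and *HOXB3* on the other strand, had 5, 1, 16 and 11 counts, a log2 fold change of -2.31 (SE 0.929) and an adjusted p of 0.292. LINC02086 had 48, 27, 64 and 55 counts, and its log2 fold change of -0.86 (SE 0.406) became -1.46 without FLO-1LM library 1.

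In the HOXC cluster, *HOTAIR* (ENSG00000228630, chromosome 12, 54356092 to 54368740, minus strand), a noncoding RNA known to bind Polycomb proteins, begins inside the body of *HOXC11* without sharing exons and had 21, 29, 49 and 42 counts. Its level was 1.04 ± 0.130 CPM in FLO-1LM and 2.21 ± 0.0229 CPM in parental cells, so each FLO-1LM library was lower than each parental one. The log2 fold change was -1.09 (SE 0.451), and it was not called (adjusted p = 0.316, edgeR). *HOXC-AS2* had 316, 288, 237 and 223 counts and *HOXC-AS1* had 70, 68, 38 and 52. *HOXC-AS3* had 32, 37, 22 and 29 counts and *HOXC13-AS* had 18, 28, 7 and 18. ENSG00000260597 had 257, 344, 279 and 171. In CPM, these 5 overlapped between the lines.

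*HAGLR*, which overlaps exons of *HOXD1* and *HOXD3* on the opposite strand, was expressed although the HOXD genes were close to 0. It had 237, 325, 272 and 235 counts, or 11.6 ± 1.40 and 12.3 ± 0.0585 CPM, and a log2 fold change of -0.08 (SE 0.171). Per kilobase it stood at 2.08 to 2.47 CPM, while *HOXD1* stood at 0.405 to 0.698. The protein-coding genes that flank the HOXD cluster, *MTX2* and *LNPK*, had 929, 921, 857 and 698 counts and 845, 1041, 813 and 712 counts. *EVX2*, the homeobox gene at the 5′ end of the cluster, had none, and *EVX1* beside HOXA had 0, 1, 0 and 0.

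The other genes of the pathway were taken from 4 lists of cofactors, relatives and regulators. Of the 11 TALE homeodomain genes, whose PBX, MEIS and PKNOX proteins bind DNA together with HOX proteins, 9 were tested. In edgeR 0 were called and 0 had an unadjusted p below 0.05, beside 2.23% and 12.4% of all genes tested. With so few genes, 0 calls set the list apart from no other. Their log2 fold changes ran from -0.20 to 0.07 with a median of -0.03. By CPM not divided by length, the highest was *TGIF1*, a repressor of TGF-beta signaling, at 132.4 ± 7.01 CPM in FLO-1LM and 131.0 ± 8.09 CPM in parental cells. *PBX2* stood at 107.4 and 102.0 CPM and *PBX3* at 55.7 and 53.2 CPM. DESeq2 and limma voom called none of this list either.

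Of 13 ParaHox and other homeobox genes related to HOX, 6 were tested. In edgeR 0 were called and 0 had an unadjusted p below 0.05, beside 2.23% and 12.4% of all genes tested. *CDX2*, the intestinal homeobox gene found in Barrett's epithelium, had 169, 157, 159 and 182 counts. *EN2* had 207, 322, 261 and 246 counts and *MNX1* had 246, 277, 264 and 210. *CDX1* had no count and *PDX1* had 0, 1, 4 and 5. The median log2 fold change of the 6 was -0.23, with values from -0.55 for *GBX2* to 0.41 for *EN1*. Without FLO-1LM library 1, *GBX2* was at -1.07 in edgeR.

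Of 30 Trithorax and Polycomb regulators, 28 were tested and 0 were called in edgeR, beside 2.23% of all genes tested. An unadjusted p below 0.05 was found for 2, *PSIP1* and *JARID2*, where 12.4% of all genes tested had one. The median log2 fold change was -0.04 and the range -0.25 to 0.25. *PSIP1*, which ties MLL complexes to chromatin, stood at 301 ± 16.3 CPM in FLO-1LM and 252.4 ± 13.5 CPM in parental cells (0.25, SE 0.0753, adjusted p = 0.104). *SUZ12*, a core Polycomb subunit, stood at 179.5 and 173.5 CPM and *KMT2A*, the MLL methyltransferase, at 154.4 and 155.9 CPM. Without FLO-1LM library 2, the log2 fold changes of *PSIP1*, *ASH2L* and *BMI1* were 0.31, -0.42 and 0.30 in edgeR. *KMT2B*, a gene that most cells use, is listed at 0 in all 4 libraries, which is not read as absence of its RNA.

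Of 9 genes tied to MEOX function in somites or the cell cycle, 4 were tested and 0 were called in edgeR, beside 2.23% of all genes tested. An unadjusted p below 0.05 was found for 1, *CDKN1A*, where 12.4% of all genes tested had one. *CDKN1A*, a cyclin-dependent kinase inhibitor gene that MEOX proteins are known to activate, had 1244, 1198, 1299 and 1157 counts. It stood at 51.2 ± 6.58 CPM in FLO-1LM and 59.6 ± 1.00 CPM in parental cells, a log2 fold change of -0.22 (SE 0.101, adjusted p = 0.376). Without FLO-1LM library 1 it was -0.36 in edgeR. *CDKN2A* stood at 101.3 ± 17.4 and 104.6 ± 14.1 CPM. The somite gene *NKX3-2* had 25, 38, 31 and 43 counts. *PAX7* had 10, 6, 14 and 19 counts and was lower in both FLO-1LM libraries in CPM. Its log2 fold change of -1.25 (SE 0.743) was not called (adjusted p = 0.547, edgeR). All 4 tested genes of this list had log2 fold changes below 0, as did 8503 of the 17143 genes tested. The values ran from -1.25 to -0.05 with a median of -0.35. *PAX1*, *PAX3*, *TBX18* and *TCF15*, which are active in somites, had no count.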

How the data were processed

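RNAseq of 4 libraries was analyzed, 2 from FLO-1LM and 2 from FLO-1 parental cells, as given by the cell line label. The authors trimmed the reads (Trimmomatic 0.30 and bcl2fastq 2.17 are named in the submitters' processing notes), mapped them to GRCh37 and deposited raw counts per Ensembl gene, without normalization. Which program counted the reads, with which strand setting, and how it handled reads that match several places are not given in the sources used here.

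From the counts, genes were filtered with filterByExpr of edgeR 4.0.16 in R 4.3.3 (minimum count 10 in 2 libraries, minimum total 15), scaled by TMM and compared by the quasi-likelihood test. Adjustment (Benjamini and Hochberg) was over all 17143 genes tested, with a threshold of 0.05. Each SE was derived from the test's F as |log2 fold change|/√F. DESeq2 1.42.0 and limma voom (limma 3.58.1), the latter named in the study's methods, were alternatives, with other scalings and filters and with each library left out. The scripts were tested on simulated data. Symbols, positions and exon lengths come from GENCODE mapped to GRCh37, later than the annotation counted on, which placed 55665 of 63677 genes. Promoter windows are RefSeq sequence from a GRCh38.p14 table, matched exactly to GRCh37.

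Every member with a count is named, except for a gene that is not reported here, as are neighbors that passed the filter inside a cluster span, and the 3 genes of each list with the highest mean CPM, not divided by length. *JARID2*, *GBX2*, *EN1*, *PDX1*, *NKX3-2*, *PAX7* and the list genes at 0 were added after their values were seen, as were the flanking genes and the list genes called under an alternative. Members and lists were chosen with earlier results of these data known. *PCGF2* and *PECAM1* were not matched and are not analysed here.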

Additional observations from a re-analysis of the deposited data

How the results depend on the processing

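The fall of *MEOX1* kept its direction and its call under every alternative run, at -1.22 to -1.14. The count of genes past the threshold, 382, became 577 without a filter on low counts and 116 to 1052 with 1 library left out. With a library left out, a line is left with a single library, which is assumed to vary like the others. The members called then numbered 1 to 3. Without FLO-1LM library 1, *HOXA5* and *HOXB3* joined *MEOX1*, and without FLO-1LM library 2, *HOXC12* did. Of the neighbors 0 to 2 were called, of the ParaHox list 0 to 1, of the Trithorax and Polycomb list 0 to 3 and of the genes tied to MEOX 0 to 1. Those called without FLO-1LM library 1 were *ETV4* (0.62), LINC02086 (-1.46), *GBX2* (-1.07) and *CDKN1A* (-0.36), and without FLO-1LM library 2 *ASH2L* (-0.42), *PSIP1* (0.31) and *BMI1* (0.30). Without a filter, 1 Trithorax and Polycomb gene, *PSIP1*, was called (adjusted p = 0.0366, edgeR). *HOXC12* stood at -1.88 in limma voom. The cause of these shifts was not tested. Calls over all genes also rose in number when either FLO-1LM library was left out. The calls added then are not read as findings about the HOX genes, the neighbors or the lists. No value reversed a call. The median of all genes, 0.0016, ran from -0.0292 to 0.0084 over the alternatives. At this depth 8 HOXD genes lay at or below 3 counts in every library. No paired analysis was possible because the labels give the libraries no replicate numbers, and library 1 and library 2 are names in accession order that pair nothing.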
